A study of Mus musculus with 6 samples.

Results

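Gask1b, Klhdc8a, Pdlim1 and Prss35 were measured in the stria vascularis, a tissue rich in capillaries that lines the outer wall of the mouse cochlea and supplies the endolymph with potassium. These 4 genes, of 18193 named on the array, form a set because their signal was higher in knockout replicates 2 and 6 than on every heterozygote array, so the size of that difference is a description and was not tested. The array named 8 of its 45037 probe sets that are not controls after exactly one of these symbols, and all 8 are described. Knockout arrays (replicates 2, 4 and 6) came from mice without working Slc26a4, the gene of the anion exchanger pendrin, and heterozygote arrays (replicates 1, 3 and 5) from mice with 1 working copy. All mice were at postnatal day 10, before hearing starts, and no wild-type mice were included. The labels state neither strain nor sex, nor whether an array held RNA of 1 animal or of a pool, so the spread between arrays may be partly technical. The number of arrays, 3 per genotype, limits the precision of every value.

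The products of these genes work in different places. Gask1b (Golgi-associated kinase 1B, earlier called Fam198b) belongs to a group of kinase-like proteins of the secretory pathway, which also holds the Fam20 kinases that phosphorylate secreted proteins. Prss35 is a secreted protein with the fold of trypsin whose catalytic serine is replaced by threonine, so it is not expected to cut as trypsin does, and it has been studied mainly in the mouse ovary. Pdlim1, also called CLP36, is a cytoplasmic adaptor with a PDZ and a LIM domain that binds alpha-actinin on actin stress fibres. Klhdc8a carries kelch repeats, which fold into a propeller that binds other proteins, and it has been studied in human glioma.

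The genes lie on 4 different chromosomes. The 250 bases before the start that the RefSeq promoter table gives for each are shown because the genes were higher together on the same arrays, and a reader can compare what stands before them. They are RefSeq sequences of build GRCm38.p6, written 5′ to 3′ on the strand of the gene, and all 4 genes were matched by symbol. Capitals mark matches, on either strand, to motifs searched by their letters: the AP-1 motif TGANTCA, the GC box GGGCGG, the TATA box TATAAA, the TEAD motif GGAATG and the CArG box of serum response factor. The windows are chr3:79885680-79885929 on the plus strand for Gask1b, chr1:132298376-132298625 on the plus strand for Klhdc8a, chr19:40271617-40271866 on the minus strand for Pdlim1 and chr9:86743383-86743632 on the plus strand for Prss35.
Gask1b: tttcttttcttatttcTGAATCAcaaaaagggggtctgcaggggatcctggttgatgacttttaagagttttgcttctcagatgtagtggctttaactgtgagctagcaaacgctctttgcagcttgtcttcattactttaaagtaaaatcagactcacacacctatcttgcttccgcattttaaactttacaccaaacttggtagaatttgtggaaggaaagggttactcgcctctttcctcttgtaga
Klhdc8a: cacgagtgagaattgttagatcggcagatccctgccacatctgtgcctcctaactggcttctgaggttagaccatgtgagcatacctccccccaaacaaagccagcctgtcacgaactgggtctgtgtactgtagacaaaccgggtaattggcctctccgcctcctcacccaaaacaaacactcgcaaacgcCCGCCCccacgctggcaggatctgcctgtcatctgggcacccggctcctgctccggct
Pdlim1: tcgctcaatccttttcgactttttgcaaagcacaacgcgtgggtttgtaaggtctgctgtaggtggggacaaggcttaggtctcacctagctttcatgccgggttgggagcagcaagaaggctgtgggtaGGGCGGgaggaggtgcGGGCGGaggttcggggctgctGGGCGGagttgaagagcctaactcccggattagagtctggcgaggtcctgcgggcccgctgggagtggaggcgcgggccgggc
Prss35: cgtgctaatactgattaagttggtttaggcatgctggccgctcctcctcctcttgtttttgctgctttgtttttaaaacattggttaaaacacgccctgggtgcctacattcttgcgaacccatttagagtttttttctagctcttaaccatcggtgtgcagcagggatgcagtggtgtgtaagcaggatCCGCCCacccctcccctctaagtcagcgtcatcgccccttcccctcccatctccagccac

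No motif was found in all 4 windows. The GC box stood 3 times before Pdlim1, once before Klhdc8a and once before Prss35, and it was found in 32.7% of 32851 promoter windows of this length. The AP-1 motif stood once, before Gask1b, against 6.75% of all windows. The TATA box (12.4% of all windows), the TEAD motif (12.6%) and the CArG box (1.47%) matched in none of the 4. The windows of Pdlim1 and Klhdc8a held 62.4% and 57.6% G and C, those of Prss35 and Gask1b 50.8% and 39.6%, and the median over all windows was 52.4%. A match is a description of these letters and not a binding site, and a missing match says nothing of the factor.

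The deposited signal is on a linear scale, with every array scaled by the authors to the same trimmed mean. Log2 values are of signal + 16, an offset that understates the change of dim probe sets. A probe set was tested if its mean over the 6 arrays reached the 40th percentile, a signal of about 43.9, which 27022 did. Of the 8 probe sets of these genes 4 passed, 1 for each gene, and each of these lay above that signal on all 6 arrays, heterozygote arrays included.

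Some facts on the arrays bear on what follows. Slc26a4, on its only probe set, gave 75.5, 106 and 154 in knockout replicates 2, 4 and 6, against 221, 248 and 1006 in heterozygote replicates 1, 3 and 5, so the knockout values were all lower, although the log2 difference of -1.69 ± 0.50 (SE) did not pass (limma adjusted p = 0.370). Knockout replicate 4 stood apart, with a mean correlation of 0.931 with the other arrays over the tested probe sets, where the other 5 had 0.966 to 0.971. Markers of the labelled tissue were present on all arrays, with a summed signal of 7 marginal cell genes of 40000 to 46470 in knockout and 40530 to 42470 in heterozygote samples.

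Gask1b had the widest difference of the 4. Its tested probe set, 1416805_at, gave 2743, 1437 and 1683 in knockout replicates 2, 4 and 6, against 361, 659 and 350 in heterozygote replicates 1, 3 and 5. All 3 knockout arrays lay above all 3 heterozygote arrays, and the lowest of them was 2.18 times the highest heterozygote signal. The means were 1954 ± 694 in knockout and 457 ± 175 in heterozygote samples (SD, n = 3 each), which differ 4.28-fold, and the log2 difference was 2.06 ± 0.40 (SE). Heterozygote replicate 3 stood above the other heterozygote arrays, 1.88 times the lowest.

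Klhdc8a was the most even gene among heterozygotes. Its tested probe set, 1424885_at, gave 271, 136 and 276 in knockout replicates 2, 4 and 6, against 73.4, 73.2 and 80.8 in heterozygote replicates 1, 3 and 5. The groups did not overlap, and knockout replicate 4 lay between the heterozygote arrays and the other knockout arrays. The means were 228 ± 79.4 in knockout and 75.8 ± 4.31 in heterozygote samples (SD, n = 3 each), a 3.003-fold difference with a log2 difference of 1.35 ± 0.31 (SE). Knockout replicates 2 and 6 differed only 1.02-fold from each other.

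Pdlim1, the actin adaptor, showed the smallest gap between groups in the replicates by which the genes were chosen. Its tested probe set, 1416554_at, gave 1638, 925 and 1513 in knockout replicates 2, 4 and 6, against 628, 588 and 760 in heterozygote replicates 1, 3 and 5. Here too every knockout array lay above every heterozygote array, with knockout replicate 4 in between and 1.22 times the highest heterozygote signal. The means were 1359 ± 381 in knockout and 659 ± 90.3 in heterozygote samples (SD, n = 3 each), a 2.06-fold difference with a log2 difference of 0.99 ± 0.28 (SE).

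Prss35, the trypsin-like secreted protein, differed from the others on knockout replicate 4. Its only probe set, 1434195_at, gave 335, 61.5 and 292 in knockout replicates 2, 4 and 6, against 82.6, 97.2 and 102 in heterozygote replicates 1, 3 and 5. Replicates 2 and 6 were high, and replicate 4 was the lowest of all 6 arrays, so the groups overlapped. The means were 229 ± 147 in knockout and 93.8 ± 9.93 in heterozygote samples (SD, n = 3 each). The log2 difference was 0.89 ± 0.70 (SE). It was 1.59 without knockout replicate 4, 0.50 without knockout replicate 2 and 0.59 without knockout replicate 6, so single arrays set its size.

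**Figure D1:**
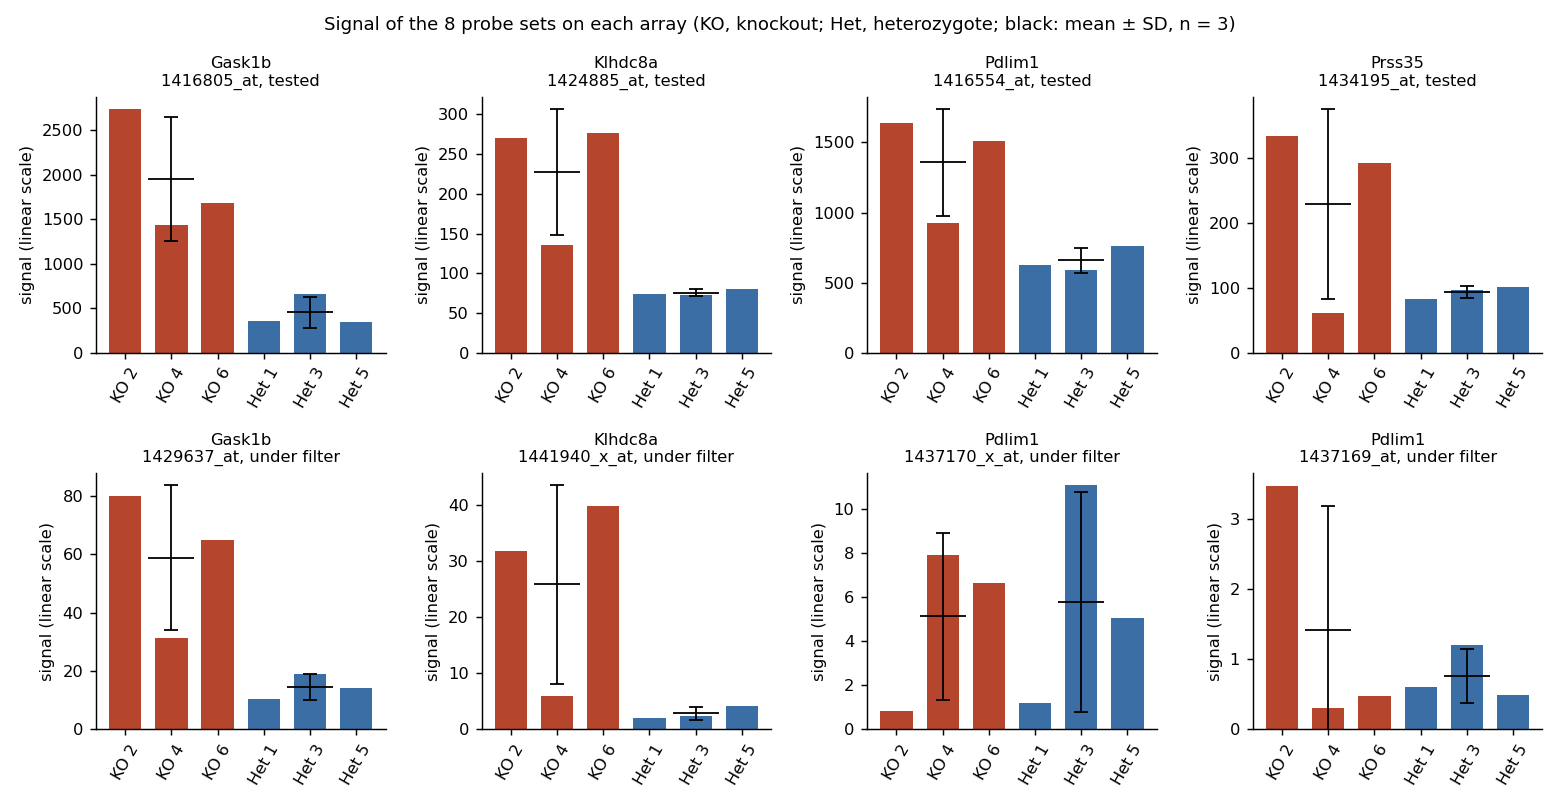
Deposited signal (linear scale, from 0) of the 8 probe sets on the 3 knockout arrays (red) and the 3 heterozygote arrays (blue), with the mean and SD of each group in black (n = 3, an error bar that would pass below 0 is drawn to 0). In the upper row, the tested probe sets, Gask1b, Klhdc8a and Pdlim1 are higher on every knockout array, while Prss35 has its lowest signal, 61.5, in knockout replicate 4, and in the lower row the dim probe sets of Pdlim1 stay at or under 11.1 with mixed groups.

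The other 4 probe sets were dim, with a mean under the filter, and were not tested. For Gask1b, probe set 1429637_at gave 80.1, 31.4 and 65.1 in knockout replicates 2, 4 and 6, against 10.2, 19.1 and 14.01 in heterozygote replicates 1, 3 and 5. The groups did not overlap, and all 9 pairs of a knockout and a heterozygote array, and 14 of all 15 pairs of arrays, stood in the same order as on the tested probe set. Its log2 difference was 1.25, against 2.06 on the tested one, and with an offset of 1 or 64 in place of 16 it was 1.90 or 0.63.

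For Klhdc8a, probe set 1441940_x_at gave 31.8, 5.85 and 39.7 in knockout replicates 2, 4 and 6, against 1.95, 2.34 and 4.18 in heterozygote replicates 1, 3 and 5. The suffix x marks a probe set some of whose probes can also bind other sequences. All 9 pairs of a knockout and a heterozygote array, and again 14 of 15 pairs in all, had the order of the tested probe set. All 6 signals lay under the filter, and apart from knockout replicates 2 and 6 they were 5.85 or less, so the order among those arrays, and the place of knockout replicate 4 above the heterozygotes, rests on a few units of signal. The log2 difference was 1.04.

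Pdlim1 had another 2 probe sets, both near the bottom of the scale, and they did not share the pattern. Probe set 1437170_x_at gave 0.819, 7.92 and 6.64 in knockout replicates 2, 4 and 6, against 1.20, 11.1 and 5.04 in heterozygote replicates 1, 3 and 5. Probe set 1437169_at gave 3.46, 0.297 and 0.468 in knockout replicates, against 0.596, 1.20 and 0.486 in heterozygote replicates. Of the 9 pairs of a knockout and a heterozygote array, 4 and 3 had the order seen on the tested probe set, and the log2 differences were -0.04 and 0.05. These signals are as low as those of the dim Klhdc8a probe set on its lower arrays, and an order among them rests on equally small differences. The Pdlim1 difference was thus seen on 1 probe set. Averaging all 3 probe sets gave 0.34 in place of 0.99.

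The rule by which the genes were chosen was thus met by 6 of the 8 probe sets. Just inside it, Pdlim1 on its tested probe set had 1513 as the lower of knockout replicates 2 and 6, against 760 as the highest heterozygote signal, 1.99 times as much. The other 2, the dim Pdlim1 probe sets, did not meet it. The lower of knockout replicates 2 and 6 was 0.468 against a highest heterozygote signal of 1.20 (0.390 times as much) on the one. On the other it was 0.819 against 11.1 (0.074 times). These signals are near the bottom of the scale, so the size of these ratios rests on small differences of signal. Over the whole array, 3890 of 27022 tested probe sets, 14.4%, met the same rule, and 24, or 0.0888%, met it by at least the log2 gap of 0.98 that Pdlim1 had. Since the rule used these arrays, nothing is read from these shares.

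Knockout replicate 4 was not used in choosing the genes. It lay above all heterozygote arrays for 3 of the 4 genes, Gask1b, Klhdc8a and Pdlim1, and below all of them for Prss35. All 3 knockout arrays lay above all heterozygote arrays in 11.0% of tested probe sets. Among the 3890 tested probe sets that met the rule, replicate 4 lay above all heterozygote arrays in 76.7% and below all of them in 13.3%, and in 67.8% and 18.3% of the 2628 that carry 1 gene symbol, so 3 of 4 is close to these shares. They cover probe sets that met the rule by any gap. The share among probe sets with gaps as wide as those of the 4 genes was not computed. With the arrays centred on their medians, replicate 4 fell within the heterozygote range for Pdlim1 (log2 signal 9.65, against 9.39 to 9.69 in heterozygotes). The positions of the other 3 genes were the same with every offset and scaling tried.

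Within the knockout group, replicate 4 was the lowest array for all 4 genes. The genes were chosen by high signal in replicates 2 and 6, which can leave replicate 4 lower. Nothing is therefore read from this order or from the shares that follow. On the log2 scale it stood 1.68 above the heterozygote mean for Gask1b, 0.73 for Klhdc8a and 0.49 for Pdlim1, and at -0.50 for Prss35. Set against the mean of replicates 2 and 6, this was 74.5% of the difference for Gask1b, 43.9% for Klhdc8a, 39.2% for Pdlim1 and -31.4% for Prss35. Of the 3890 probe sets that met the rule, 5.76% had replicate 4 above all heterozygote arrays and yet below both other knockout arrays, as these 3 genes had. Without replicate 4 the log2 differences were 2.26 for Gask1b, 1.66 for Klhdc8a and 1.25 for Pdlim1.

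**Figure D2:**
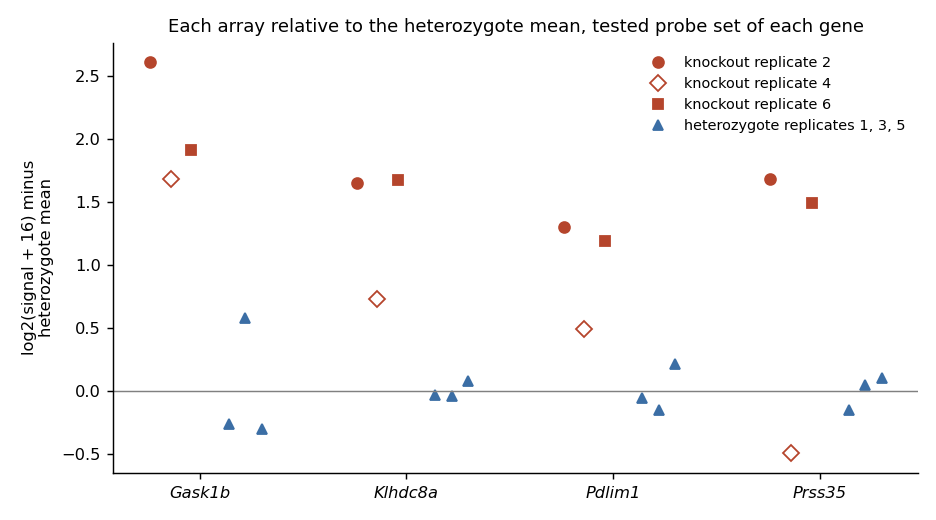
Log2(signal + 16) of each array minus the heterozygote mean, for the tested probe set of each gene, with knockout arrays in red (replicate 4 as open diamonds) and heterozygote arrays as blue triangles. Knockout replicate 4 lies at 1.68 for Gask1b, 0.73 for Klhdc8a, 0.49 for Pdlim1 and -0.50 for Prss35, below knockout replicates 2 and 6 in each gene.

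The profiles of the 4 genes were compared as the root-mean-square difference between their log2 signals over the 6 arrays, each centred on its own mean, which is 0 for equal profiles. Klhdc8a and Pdlim1 were the closest pair at 0.20. Prss35 differed from both by 0.46, Gask1b from Klhdc8a by 0.53 and from Pdlim1 by 0.68, and Gask1b from Prss35 by 0.83. The points share the same 6 arrays and the contrast by which the genes were chosen, so these distances only describe which profiles were nearest.

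By the same measure the nearest of 12424 other genes were found for each. For Gask1b they were Scn9a, a voltage-gated sodium channel (0.29), Scn7a, its sodium-sensing relative (0.31), and Npr3, the clearance receptor for natriuretic peptides (0.32). Scn9a gave 285, 159 and 216 in knockout replicates 2, 4 and 6, against 37.7, 35.7 and 26.8 in heterozygote replicates 1, 3 and 5. All heterozygote signals of Scn9a were under the filter signal of 43.9, so it passed the filter through knockout arrays. Npr3 gave 3707, 3229 and 3287 in knockout replicates 2, 4 and 6, against 769, 1385 and 1020 in heterozygote replicates 1, 3 and 5, and like Gask1b had its highest heterozygote signal in replicate 3. For Klhdc8a they were Meox2, a mesenchymal homeobox factor (0.23), Eprn (0.25) and Ms4a4d (0.26). Meox2 gave 122, 94.3 and 126 in knockout replicates 2, 4 and 6, against 30.2, 45.4 and 39.5 in heterozygote replicates 1, 3 and 5, with no overlap. Among heterozygotes Meox2 was above the filter signal only in replicate 3. Ms4a4d was under it on all heterozygote arrays, at 31.1, 34.5 and 36.2, and so also passed the filter through knockout arrays.

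For Pdlim1 the nearest genes were Eprn (0.17), Ctsk, the cathepsin of bone-resorbing osteoclasts (0.20), and Cdca3, which acts in cell division (0.20). Ctsk gave 685, 406 and 752 in knockout replicates 2, 4 and 6, against 391, 290 and 316 in heterozygote replicates 1, 3 and 5, again with replicate 4 lowest among the knockout arrays. For Prss35 they were Ifit1bl1 (0.32), Ms4a4d (0.34) and C5ar1, the receptor for complement fragment C5a (0.35), all farther away than the nearest genes of Klhdc8a and Pdlim1. C5ar1 gave 420, 102 and 396 in knockout replicates 2, 4 and 6, against 208, 182 and 263 in heterozygote replicates 1, 3 and 5, and so shared the low signal of Prss35 in knockout replicate 4. The neighbours depended on the measure: by Pearson correlation 0 of the 3 of Klhdc8a and of Prss35, 1 of the 3 of Pdlim1 and 2 of the 3 of Gask1b were kept. Without knockout replicate 4, a setting added after seeing the data, 2 of the 3 were kept for Gask1b and for Klhdc8a and 1 of the 3 for Pdlim1 and for Prss35.

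Genes related to these 4, or known to work with them, were tested over the whole array with limma and Benjamini-Hochberg adjustment. Of 47 tested genes in 6 lists, 0 passed at an adjusted p of 0.05, and over all tested probe sets 1 passed, or 0.0037%. At an unadjusted p under 0.05, 2 of the 47 (4.26%) were higher and 5 (10.6%) lower in knockout samples, against 3.15% and 3.20% of all 12428 genes. These 7 became 3 without heterozygote replicate 5, 14 with median centring and 11 with array weights. The median log2 difference of the 47 genes was -0.03, against -0.04 over all genes. The following values are therefore descriptions of genes that did not pass.

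Among 9 tested secretory-pathway kinases related to Gask1b, the log2 difference was above 0 for 3 and below 0 for 6, with a median of -0.06, where 43.2% of all genes were above 0. Dipk2a, a kinase-like protein of the Golgi, gave 2593, 2473 and 2522 in knockout replicates 2, 4 and 6, against 1203, 1471 and 2256 in heterozygote replicates 1, 3 and 5, without overlap. Its log2 difference was 0.67 ± 0.20 (SE, limma adjusted p = 0.370), and another probe set gave 0.60. Dipk1a, a relative in the endoplasmic reticulum, gave 2222 ± 175 in knockout and 2884 ± 249 in heterozygote samples (SD, n = 3 each), and differed by -0.37 ± 0.12 on the log2 scale (SE, limma adjusted p = 0.370). The list thus held values on both sides of 0, all of them smaller than that of Gask1b.

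The relatives of Klhdc8a lay close to 0. The median over 6 tested Klhdc genes was -0.04, with 2 above 0 and 4 below, and Klhdc3 had a log2 difference of -0.09 ± 0.11 (SE, limma adjusted p = 0.795), or -0.155 without knockout replicate 4. The other probe sets of Klhdc3 gave -0.12 and 0.09, on both sides of 0. Klhdc1 had 0.10 ± 0.19 (SE, limma adjusted p = 0.872) and took the other sign without knockout replicate 4 and after median centring. Klhdc8b, the nearest in name, gave 254, 179 and 208 in knockout replicates 2, 4 and 6, against 203, 162 and 227 in heterozygote replicates 1, 3 and 5, with overlapping groups.

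For Pdlim1, both the PDZ-LIM family and the proteins of stress fibres were examined. The 5 tested PDZ-LIM relatives had a median of 0.01, which took the other sign after median centring (-0.18), with quantile normalisation (-0.083), with the 60th percentile filter (-0.093), without heterozygote replicate 5 (-0.14) and without knockout replicate 6 (-0.056). Ldb3, a protein of the muscle Z-disc, had a log2 difference of 0.58 ± 0.31 (SE, limma adjusted p = 0.505) and rested on knockout replicate 4, with 153, 316 and 139 in knockout replicates 2, 4 and 6, against 102, 121 and 144 in heterozygote replicates 1, 3 and 5. Without that array the difference of Ldb3 was 0.24. With all arrays, another probe set of Ldb3 gave 0.13. Pdlim2 had 0.21 ± 0.21 (SE, limma adjusted p = 0.744), which was 0.000 without knockout replicate 2, 0.078 without heterozygote replicate 5 and 0.008 after median centring.

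Of 12 tested stress fibre genes, 3 had a log2 difference above 0 and 9 below, with a median of -0.03. Palld, the actin-bundling palladin that binds alpha-actinin, gave 7275, 8957 and 6404 in knockout replicates 2, 4 and 6, against 5871, 6094 and 6129 in heterozygote replicates 1, 3 and 5. These groups did not overlap, and the log2 difference was 0.31 ± 0.12 (SE, limma adjusted p = 0.374), with 0.50 and 1.06 on its other probe sets. It was 0.18 without knockout replicate 4 and 0.11 after median centring. Actn2, the alpha-actinin of muscle, gave 74.6 ± 15.7 in knockout and 125 ± 15.9 in heterozygote samples (SD, n = 3 each), and differed by -0.64 ± 0.24 on the log2 scale (SE, limma adjusted p = 0.374). The alpha-actinins of non-muscle cells had 0.17 for Actn1 and -0.13 for Actn4, next to 0.99 for Pdlim1. The value of Actn1 was 0.079 without knockout replicate 4 and -0.026 after median centring, and its other probe sets gave -0.14 and -0.26.

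Prss35 was set beside other trypsin-like serine proteases, secreted or in the membrane, and beside genes of the serpin family. Prss23, the nearest relative of Prss35, gave 444, 617 and 955 in knockout replicates 2, 4 and 6, against 802, 1589 and 2459 in heterozygote replicates 1, 3 and 5, so the groups overlapped. Its log2 difference was -1.17 ± 0.38 (SE, limma adjusted p = 0.370), its other probe sets gave -1.10 and -1.07, and it was -0.80 without heterozygote replicate 5. Hpn, the membrane protease hepsin, gave 197 ± 3.96 in knockout and 280 ± 16.4 in heterozygote samples (SD, n = 3 each), and differed by -0.47 ± 0.19 on the log2 scale (SE, limma adjusted p = 0.393). Over the 10 tested proteases the median was -0.07.

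The 5 tested serpins had a median of 0.12, which took the other sign without knockout replicate 2 (-0.17) and after median centring (-0.077). Serpinf1, which encodes pigment epithelium-derived factor, had a log2 difference of 0.52 ± 0.26 (SE, limma adjusted p = 0.476), with 1304, 1089 and 1426 in knockout replicates 2, 4 and 6, against 606, 812 and 1365 in heterozygote replicates 1, 3 and 5. Its difference was 0.26 without heterozygote replicate 1 and 0.84 without heterozygote replicate 5. Serpini1, neuroserpin, had -0.49 ± 0.34 (SE, limma adjusted p = 0.618), which was -0.82 without heterozygote replicate 1, -0.27 without heterozygote replicate 3 and -0.32 without knockout replicate 4. The groups overlapped in both genes, in Serpinf1 through heterozygote replicate 5.

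**Figure D3:**
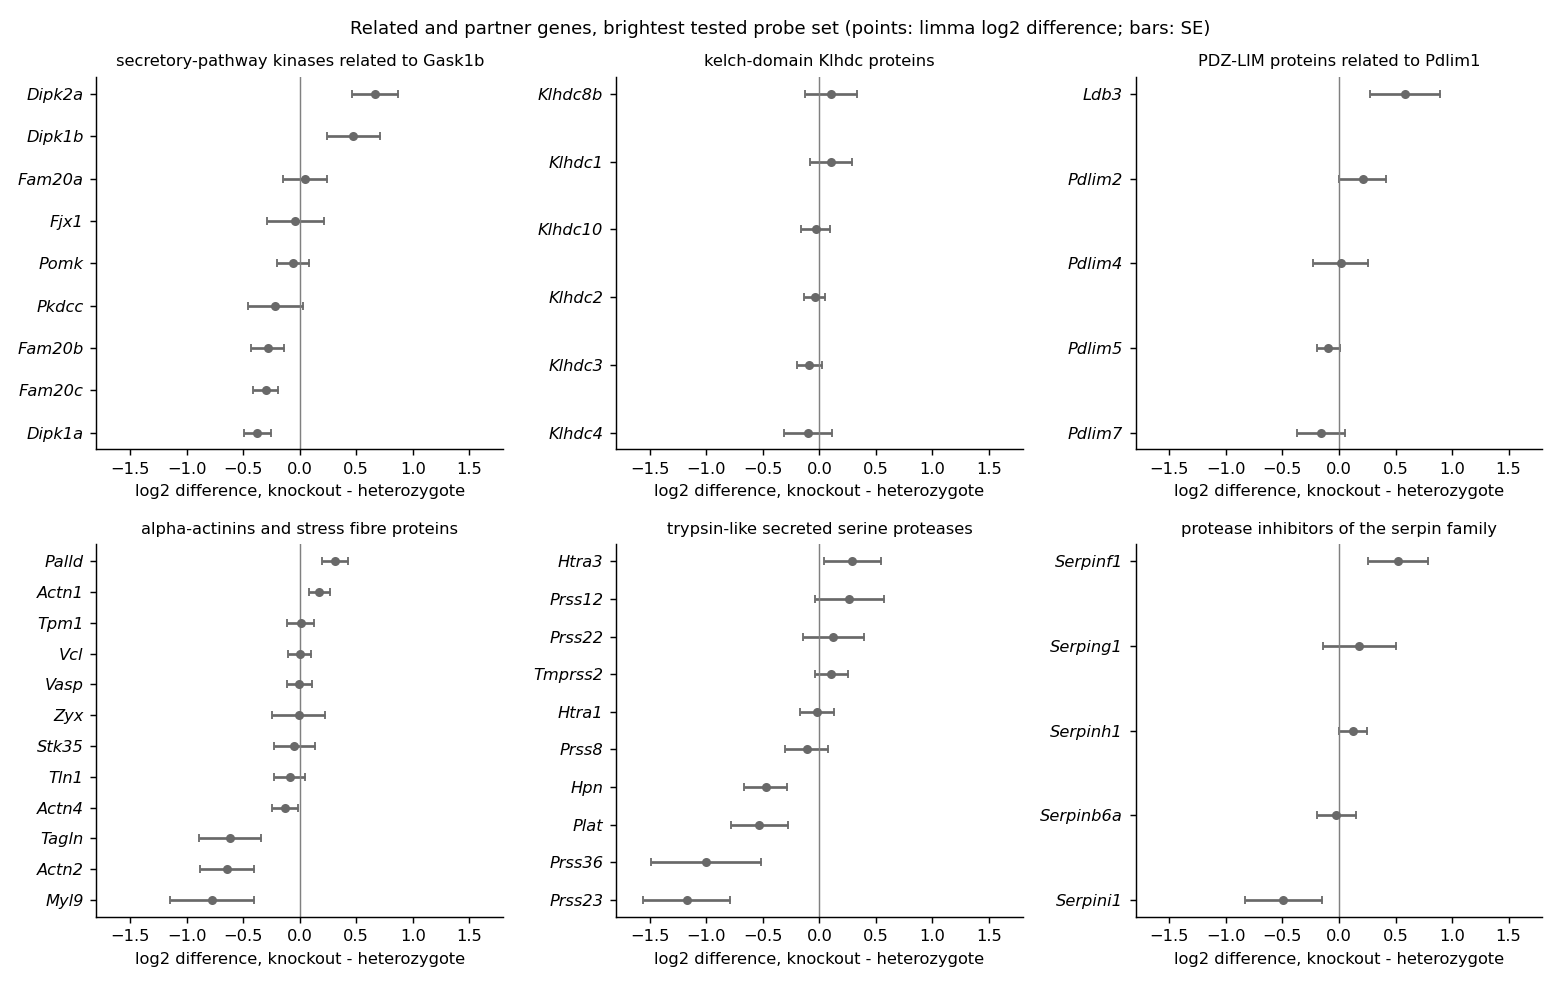
Log2 difference (knockout minus heterozygote, limma, bars are SE, 3 arrays per group) of the brightest tested probe set of 47 genes related to Gask1b, Klhdc8a, Pdlim1 and Prss35, in 6 lists. No gene passed the adjusted threshold, and the values run from -1.17 for Prss23 to 0.67 for Dipk2a.

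The summed signals of bone and of cartilage markers were higher on the knockout arrays, and within the knockout group the single bone markers differed in their order. Of 8 tested genes of osteoblasts, osteocytes and osteoclasts 7 had a log2 difference above 0, where 43.2% of all genes did. The median was 1.23 (1.11 without knockout replicate 4). By limma 0 of the 8 were called, and 6 were higher at an unadjusted p under 0.05, against 3.15% of all genes. The summed signal of the 8 was 6116, 9074 and 10530 in knockout replicates 2, 4 and 6, against 3238, 3886 and 5582 in heterozygote replicates 1, 3 and 5, so the groups did not overlap, and no marker was at 0. Dmp1 was the largest part of this sum, with 3286, 4991 and 5438 in knockout replicates 2, 4 and 6. The sum, Dmp1, Ibsp, Phex, Sp7 and Mmp9 were higher on knockout replicate 4 than on replicate 2. Ctsk, Alpl and Acp5 were lower on replicate 4 than on replicate 2, as all 4 genes were. The summed signal of 9 chondrocyte genes was higher on all knockout arrays and highest on replicate 4. It was 29470, 30490 and 27520 in knockout replicates 2, 4 and 6, against 20960 to 25980 in heterozygote samples. Of 7 tested chondrocyte genes, 5 had a log2 difference above 0 and 2 below, with a median of 0.28, where 43.2% of all genes were above 0. At an unadjusted p under 0.05, 1 of the 7 was higher in knockout samples, against 3.15% of all genes. The summed signal of 12 fibrocyte and mesenchymal genes overlapped, at 43590 to 47280 in knockout and 33740 to 49080 in heterozygote samples. Of these 12, 7 had a log2 difference above 0 and 5 below, with a median of 0.12 and 0 called. At an unadjusted p under 0.05, 5 were higher and 1 lower in knockout samples, against 3.15% and 3.20% of all genes. In whole tissue, more cells of a type and more RNA per cell cannot be told apart, and the part of these cells in the signal of the 4 genes was not tested.

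Markers of blood vessels, and several of macrophages, were low on knockout replicate 4. The summed signal of 10 endothelial genes was 6654, 3148 and 10090 in knockout replicates 2, 4 and 6, against 6497, 11060 and 6779 in heterozygote replicates 1, 3 and 5, and that of 10 pericyte and smooth muscle genes was 11410, 7672 and 12800, against 10630, 13300 and 11020. Both were lowest on the array on which Prss35 was lowest. Of the tested markers, 8 of 10 endothelial and 7 of 10 pericyte and smooth muscle genes had their lowest signal there, against 36.15% of all tested genes. The summed signal of 12 macrophage genes was 11690, 8712 and 10760 in knockout replicates 2, 4 and 6, against 7989, 10920 and 10590 in heterozygote replicates 1, 3 and 5, with replicate 4 inside the heterozygote range. That sum is mostly C1qb and Csf1r, which gave 4155 and 2395 on replicate 4. Of 11 tested macrophage genes, 6 had their lowest signal of all arrays on replicate 4, against 36.15% of all tested genes. They were the calcium-binding Aif1, the Fc receptor Fcgr1, the complement gene C1qc, Adgre1, Cx3cr1 and Lyz2. For Adgre1 the signal there was 178.5, barely under the 178.6 of heterozygote replicate 3. The median of the 11 on replicate 4 lay at -0.17 against the heterozygote mean on the log2 scale. Their median log2 difference was 0.04, and 0.29 without replicate 4. The part of these cells in the position of Prss35 on that array was not tested.

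**Figure D4:**
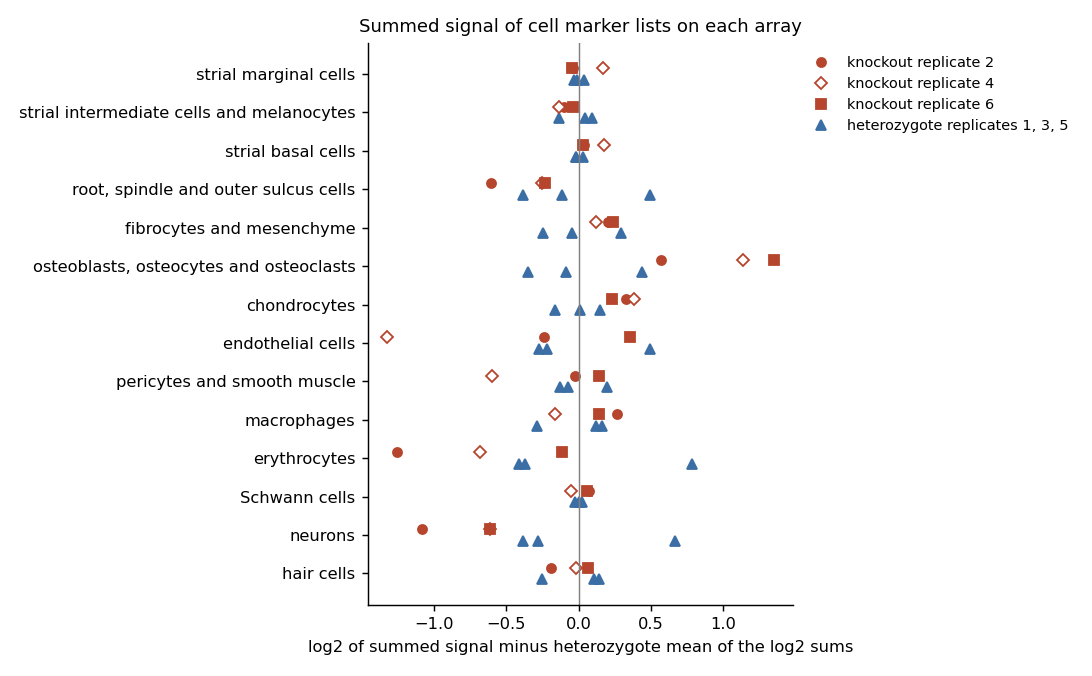
Log2 of the summed signal of each of 14 cell marker lists on each array, minus the heterozygote mean of the log2 sums, with knockout arrays in red (replicate 4 as open diamonds) and heterozygote arrays as blue triangles. The osteoblast, osteocyte and osteoclast sum is higher on all knockout arrays (6116 to 10530, against 3238 to 5582), and the endothelial sum is lowest on knockout replicate 4 (3148).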

How the data were processed

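Total RNA of stria vascularis was amplified with the NuGEN Ovation protocol and hybridised to 1-colour Affymetrix mouse arrays, per the labels' protocols. The deposited values are signal intensity per probe set on a linear scale, and the submitters' processing notes name GCOS without a version. The deposited table held 45101 probe sets for 6 arrays. Trimmed by 2% at both ends, each array averaged 500.002, so the authors' scaling was kept. The 64 control probe sets were left out.

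Log2(signal + 16) was filtered at the 40th percentile of the mean over all arrays and tested with limma (version 3.58.1, R version 4.3.3), using moderated variances with an intensity trend, two-sided, and Benjamini-Hochberg adjustment over 27022 probe sets. The fit was run on simulated data with planted changes, a capped spread and no array that stood apart. That run does not show how the fit performs with an array such as knockout replicate 4. The SE of the 4 genes comes from the spread within each group, that of other genes from limma. Platform annotation gave 34945 probe sets 1 symbol, 932 several and 9160 none, and 34741 were matched to RefSeq by gene identifier. The brightest tested probe set stood for a gene.

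Named are all probe sets of the 4 genes, Slc26a4, the 2 genes of each related list with the smallest p, and the 3 genes nearest to each of the 4 in profile. Klhdc8b, Actn1, Actn4 and the macrophage genes were chosen after their values were seen. The 14 marker lists are given by their sums where they bear on a result. The 4 genes and all lists were chosen with earlier results of these data known. Plots used matplotlib 3.10.9 and Python 3.11.15.

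Alternatives were offsets of 1 and 64, a floor of 32, quantile normalisation, median centring, no filter, a filter at the 60th percentile, fits with robust variance, with array weights or without the variance trend, the mean of the probe sets of a gene, and leaving out each array in turn. The search for nearest genes without knockout replicate 4 was added after seeing the data.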

Additional observations from a re-analysis of the deposited data

How the results depend on the processing

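No paired analysis was possible because knockout arrays carry the numbers 2, 4 and 6 and heterozygote arrays 1, 3 and 5, so no number is shared. Leaving out one array at a time, the log2 difference ran from 1.79 to 2.35 for Gask1b, 1.19 to 1.66 for Klhdc8a, 0.84 to 1.25 for Pdlim1 and 0.50 to 1.59 for Prss35, and it stayed above 0 with every offset and scaling tried. The mean of all Pdlim1 probe sets gave 0.34. The count of called probe sets over the array, 1, became 4 with the floor of 32, 3 with quantile normalisation or median centring, 0 with no filter or the 60th percentile filter and 25 with array weights. It was 0 to 13 when an array was left out, with 2 without heterozygote replicate 1, 0 without knockout replicate 2, 3 without heterozygote replicate 3, 13 without knockout replicate 4, 0 without heterozygote replicate 5 and 0 without knockout replicate 6. No related gene was called under any of 17 alternatives, and the number with an unadjusted p under 0.05, 7, ran from 3 to 14.

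The height of knockout replicate 4 over the heterozygote mean moved more. For Klhdc8a it was 0.84 and 0.52 with offsets of 1 and 64, 0.84 with the floor of 32, 0.40 with quantile normalisation, 0.40 with median centring and 0.47 over both probe sets. For Pdlim1 it was 0.16 with median centring and 0.20 over all probe sets, for Gask1b 1.17 over both probe sets, and for Prss35 -0.33 with an offset of 64, -0.82 with quantile normalisation and -0.83 with median centring. Median centring put the median log2 difference of all genes at -0.24, with 15.2% of genes higher, where the deposited scaling gave -0.04 and 43.2%. The 4 genes then stood 2.10 (Gask1b), 1.39 (Klhdc8a), 1.03 (Pdlim1) and 0.93 (Prss35) above that median. It also put the list medians at -0.26 for kinases, -0.24 for Klhdc genes, -0.18 for PDZ-LIM genes, -0.23 for stress fibre genes, -0.27 for proteases and -0.077 for serpins, Klhdc1 at -0.10 and Actn1 at -0.026. Quantile normalisation gave -0.081 for stress fibre genes, the 60th percentile filter -0.29 for proteases, and the mean of probe sets 0.14 for PDZ-LIM genes.

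Without one array, the medians ran from -0.21 to -0.058 for kinases, -0.082 to -0.011 for Klhdc genes, -0.14 to 0.12 for PDZ-LIM genes, -0.076 to -0.016 for stress fibre genes, -0.14 to -0.055 for proteases and -0.17 to 0.20 for serpins, and Klhdc1 ran from -0.001 to 0.17, with -0.001 without knockout replicate 4. The cause of these moves was not tested. The dim second probe sets of Gask1b and Klhdc8a are limited by low signal, with log2 differences from 0.63 to 1.90 and from 0.10 to 2.49 over the offsets, floor and scalings.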

Other observations

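Prss23 and Prss36, both trypsin-like proteases, had their highest signal in heterozygote replicate 5, like Slc26a4. The share of all genes that were highest on that array was not computed. Prss36 gave 356, 685 and 467 in knockout replicates 2, 4 and 6, against 585, 651 and 2525 in heterozygote replicates 1, 3 and 5, and its log2 difference of -1.005 ± 0.48 (SE) did not pass (limma adjusted p = 0.459) and was -0.34 without heterozygote replicate 5. Serping1, the inhibitor of the first complement component, was lowest on knockout replicate 4 as Prss35 was, with 2093, 704 and 1431 in knockout replicates 2, 4 and 6, against 1334, 1031 and 1053 in heterozygote replicates 1, 3 and 5. Over all tested genes, 36.15% had their lowest signal on knockout replicate 4. Myl9, the regulatory myosin light chain of smooth muscle and stress fibres, gave 619, 186 and 498 in knockout replicates 2, 4 and 6, against 692, 774 and 579 in heterozygote replicates 1, 3 and 5. These genes were chosen after their values were seen.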
